A study of Mus musculus with 2 samples.

Results

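LIM homeodomain factors are transcription factors that carry a pair of LIM zinc-finger domains ahead of a DNA-binding homeodomain. The LIM domains bind the adaptor Ldb1, and the combination of family members in a neuron is known to help set its transmitter, migration and axon targets. The 7 genes described here were chosen by symbol: Lhx1, Lhx2, Lhx5, Lhx6, Lhx8, Lhx9 and Isl1, out of 32285 genes counted in both tissues. Lhx1 with Lhx5, Lhx2 with Lhx9 and Lhx6 with Lhx8 are pairs of close paralogues, and Isl1 stands apart. The family has 5 further genes, Lhx3, Lhx4, Isl2, Lmx1a and Lmx1b.

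Slide-tags single-nucleus RNA sequencing, in which nuclei of a 20 μm tissue section receive spatial barcodes before they are dissociated and sequenced, was analysed for 2 mouse tissues. One was a sagittal section of the brain of a C57BL/6J embryo at embryonic day 14 (E14), and the other the hippocampus of a male C57BL/6J mouse at 56 days of age, and no allele or agent is named for either. Each tissue was 1 library with no replicate, so no test was made, and age, tissue and animal cannot be told apart. Spatial positions were not used here.

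The E14 library held 9036 nuclei with 58923882 unique molecular identifiers (UMIs, each marking 1 captured RNA molecule), and the adult library 1609 nuclei with 15346746 UMIs. Median depth was 4204 UMIs per nucleus at E14 and 6607 in the adult, and 1 nucleus barcode occurred in both libraries. A level is the summed UMIs of a gene in a class, scaled to 1e+06 UMIs of that class (CPM). Brackets after a level or ratio hold its exact 95% Poisson interval. Brackets after a share of nuclei hold the exact 95% Clopper-Pearson interval, and both kinds cover counting error only. CPM were not divided by gene length, so they are compared between classes and not between genes.

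E14 nuclei fell into 33 clusters, built and named without any LIM homeodomain gene. Noncoding genes at the loci of members, described below, were not left out of the clustering. Gm27199, beside Lhx5, was among the leading genes of cluster 8, and AI606473, beside Lhx8, among those of clusters 22 and 27. The clusters may therefore not be independent of these loci. The UMIs of Gad1, Gad2 and Slc32a1, which make and load GABA, were divided by those of the glutamate transporters Slc17a6 and Slc17a7. This ratio was at least 20.2 in 11 GABA clusters (2950 nuclei) and at most 1.44 in 10 glutamate clusters (2892 nuclei). Of these 21 neuron clusters, 9 stayed unnamed and are called by number. Only 3 of 8 markers, Gbx1, Nkx2-1 and Zic1, named the basal forebrain cholinergic-like cluster 27. In it 6 of the 8 forebrain GABAergic markers met the same rule, so its name is a label only. Chat, the enzyme that makes acetylcholine, had a UMI in 9 of its 99 nuclei, and Slc5a7 in 1.01% of them. Free RNA and doublets can put member UMIs into classes that should lack them. As background, 274 endothelial-like and microglia-like nuclei were pooled. Their median depth was 6485 UMIs, and 19.3% of them were among the nuclei of the highest doublet scores, against 4.67% in the neuron clusters.

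All 7 members stood at least 4-fold above this background in their highest neuron cluster, where 12.9% of the 15790 genes with 100 or more UMIs did. The folds ran from 4.77 for Lhx2 to 12.8 for Lhx8, with a median of 9.01 against 1.49 over all genes tested. The count depended on how classes were drawn. With coarser clusters (resolution 0.8) it was 6, since Lhx2 stood at 3.70-fold. With classes taken from the markers in each nucleus alone it was 2, Lhx1 at 6.46-fold and Lhx5 at 6.25-fold, and the others stood between 1.94-fold (Lhx8) and 3.81-fold (Lhx9). Their evenness index tau, which is 0 for equal levels in all 21 neuron clusters and 1 for a gene of 1 cluster, was 0.764 (Lhx5) to 0.919 (Lhx8), and its median over all genes was 0.462. Each of the 21 neuron clusters held at least 1 member whose ratio to background had an interval above 1: 4 clusters held 1, 8 held 2, 6 held 3 and 3 held 4. The share of all genes past this interval rule was not computed, so these counts are a description only. The same holds for the counts of clusters above background given for each member below. In the plot of levels by cluster, the highest cluster of Lhx6, Lhx8 and Isl1 was a GABA cluster and that of Lhx1, Lhx2, Lhx5 and Lhx9 a glutamate cluster.

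**Figure D1:**
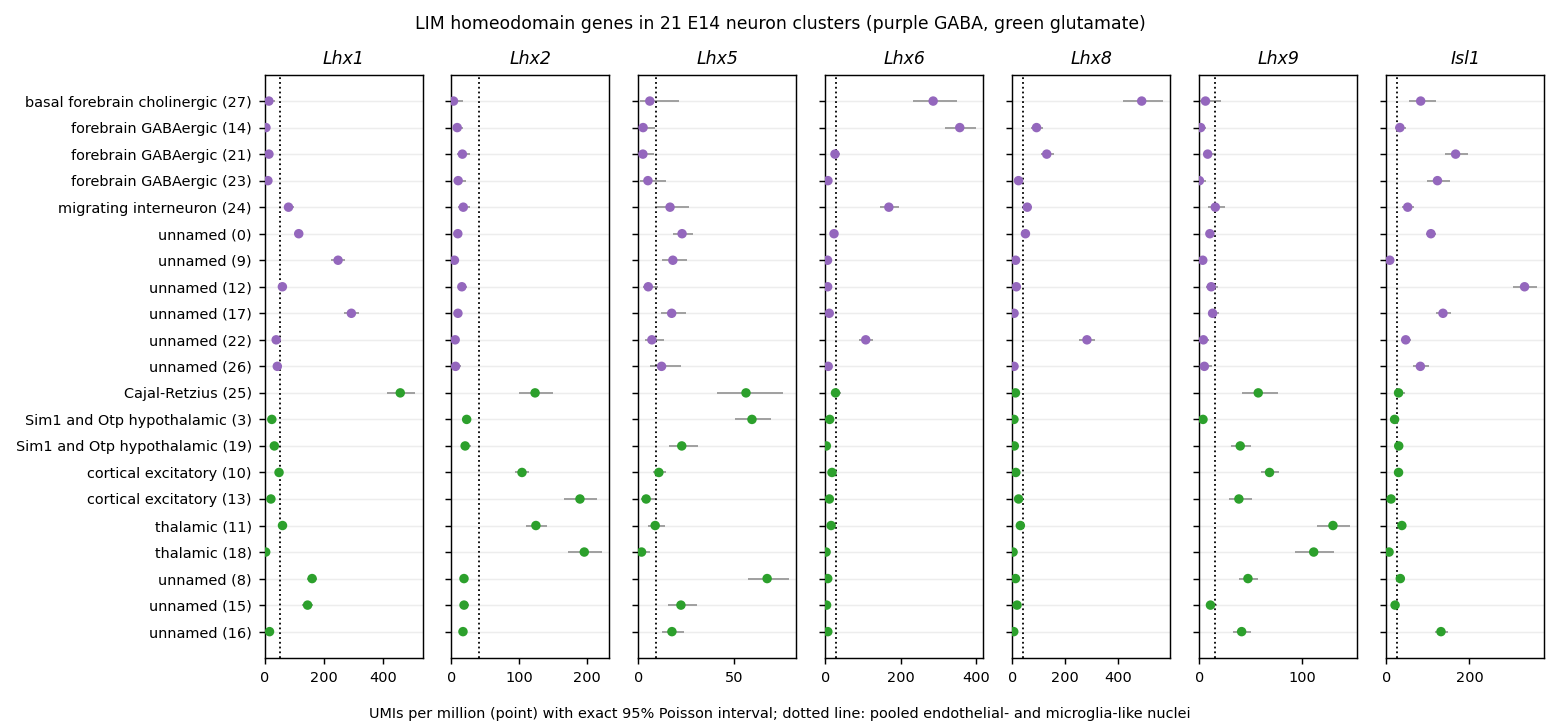
Level of each gene (CPM, horizontal axis, own scale per panel) in the 21 E14 neuron clusters (rows, cluster number in brackets), with exact 95% Poisson intervals. Purple points are GABA clusters, green points glutamate clusters and the dotted line the pooled endothelial-like and microglia-like nuclei; Lhx6 and Lhx8 reach 357 and 489 in GABA clusters, while every Lhx2 point right of its dotted line is green.

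Summed over clusters by transmitter, Lhx6 was 5.85-fold (5.01 to 6.87) and Lhx8 5.66-fold (4.92 to 6.53) higher in GABA than in glutamate clusters. Isl1 was 2.95-fold (2.70 to 3.22) and Lhx1 1.54-fold (1.44 to 1.65) higher in GABA clusters. In the other direction Lhx2 was 7.59-fold (6.37 to 9.10), Lhx9 6.63-fold (5.47 to 8.10) and Lhx5 2.01-fold (1.70 to 2.38) higher in glutamate clusters. The members of the Lhx1 and Lhx5 pair thus had their higher sums on opposite sides, and those of the other pairs on the same side.

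Lhx1, which is known for its role in head organization and in Purkinje and retinal horizontal cells, was highest in the Cajal-Retzius-like cluster 25. Cajal-Retzius cells are early-born neurons of the cortical surface that secrete Reln. There Lhx1 reached 459.7 CPM (414 to 509.7), from 361 UMIs in 94 of 132 nuclei. GABA clusters 17 and 9 followed at 294 CPM (270 to 320) and 249 CPM (227 to 273), and the unnamed glutamate cluster 8 at 161 CPM (145 to 178). Each of these differed from the next by more than its counting interval, whereas cluster 8 and glutamate cluster 15, at 146 CPM (128 to 165), did not. The background class was at 51.0 CPM (43.5 to 59.4). With every nucleus thinned to 2000 UMIs, 51.2% of cluster 25 nuclei had an Lhx1 UMI, against 8.19% of background nuclei. Of all neuron clusters, thalamic-like cluster 18 had the lowest level, at 4.0 CPM (1.30 to 9.35), and it was also the lowest for Lhx5, Lhx6, Lhx8 and Isl1, at 1.6 to 6.41 CPM.

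Cluster 17 also held Pax6 at 308 CPM and Isl1 at 136 CPM, and cluster 9 held Reln at 1008 CPM and Pax6 at 89.0 CPM. In the Cajal-Retzius-like nuclei the other genes listed as partners of Lhx1, Lhx2, Lhx5 and Lhx9 gave 5 of 14 tested at 4-fold above background, against 2.46% of all genes, and 0 at 1/4 of it or less (7.73% of all genes). Those above were Robo2, Reln, Trp73, Tbr1 and Emx2, of which Reln and Trp73 were markers that named the cluster. The list's median fold was 2.43 there, with Gbx2, which had no UMI, entered at the upper limit of 3 UMIs. It was 2.81 without Gbx2, and 0.888 over all genes.

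Lhx5, the paralogue of Lhx1 and known from the developing hippocampus and hypothalamus, had 3 clusters at about the same level. It stood at 67.0 CPM (56.9 to 78.4) in glutamate cluster 8, at 59.1 CPM (50.1 to 69.3) in the Sim1 and Otp hypothalamic-like cluster 3, and at 56 CPM (40.7 to 75.2) in Cajal-Retzius-like nuclei. These neighbours did not differ beyond their counting intervals. The next cluster, GABA cluster 0, was at 22.7 CPM (18 to 28.3), 2.47-fold (1.66 to 3.61) below the Cajal-Retzius-like nuclei. The background class was at 8.97 CPM (6.01 to 12.9), and Lhx5 exceeded it in 9 neuron clusters. Cluster 8 had the leading genes Samd3 and Gpr149, and held Tbr1 at 73.5 CPM and Trp73 at 55.0 CPM.

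The UMI ratio of the paralogues depended on the cluster. The background class gave 0.176 Lhx5 UMIs per Lhx1 UMI (0.114 to 0.262). The ratio was 2.39 (1.77 to 3.25) in hypothalamic-like cluster 3, with 153 Lhx5 and 64 Lhx1 UMIs, and 0.416 (0.343 to 0.503) in cluster 8. Lhx1 in cluster 3, at 24.7 CPM, was below its background level of 51.0 CPM. The ratio was 0.0588 (0.0396 to 0.0845) in GABA cluster 17 and 0.0719 (0.0489 to 0.102) in GABA cluster 9. Cajal-Retzius-like nuclei, at 0.122 (0.0870 to 0.167), overlapped the background ratio while exceeding the background level of both genes.

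**Figure D2:**
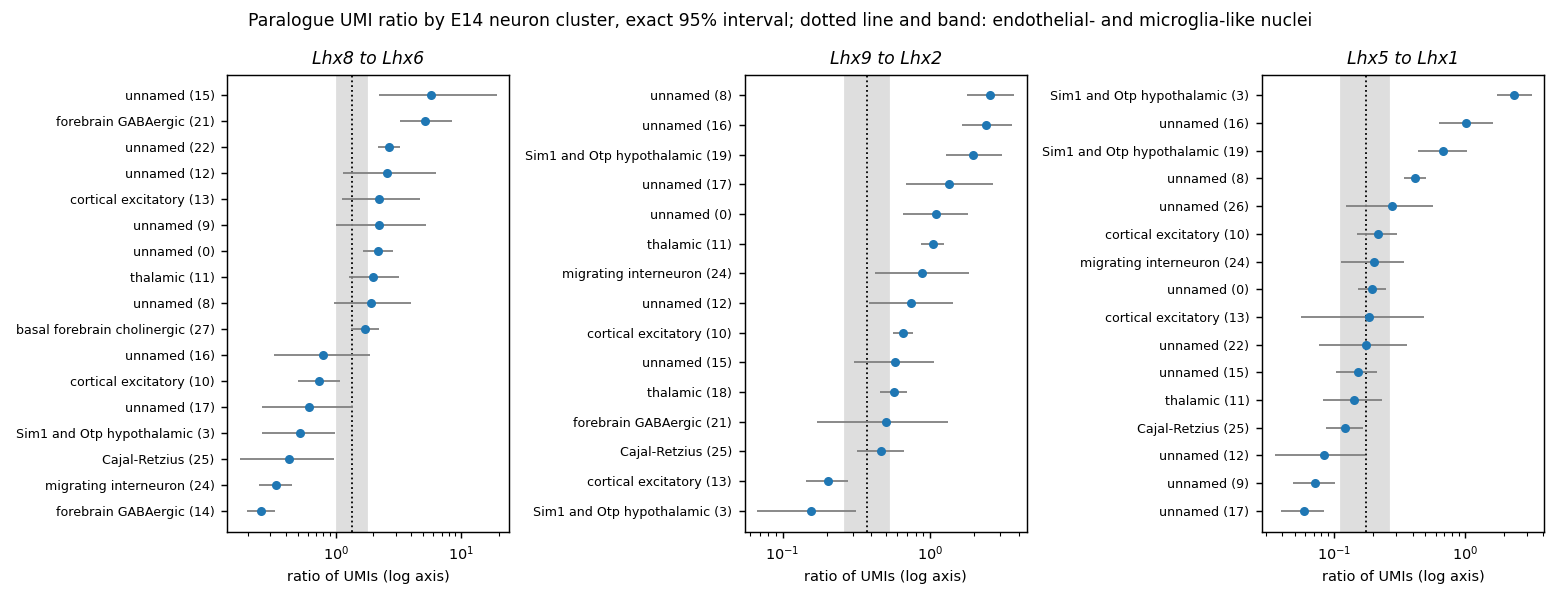
UMI ratio of the 3 paralogue pairs (horizontal log axis) in each E14 neuron cluster with at least 20 UMIs of the pair, with exact 95% intervals. The dotted line and grey band are the ratio and interval in endothelial-like and microglia-like nuclei. Lhx8 to Lhx6 spans 0.256 in cluster 14 to 5.80 in cluster 15, and Lhx5 to Lhx1 spans 0.0588 in cluster 17 to 2.39 in cluster 3. The 5.80 rests on 29 Lhx8 and 5 Lhx6 UMIs, with Lhx8 at 17.3 CPM, below its background of 38.4 CPM. Lhx1 in cluster 3 was also below its background.

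Lhx2, a factor of the cortical primordium, the eye and the thalamus, was not a neuron gene alone. Its highest level of all 33 clusters was in dorsal radial glia-like cluster 5, at 236 CPM (218 to 256), with the smaller radial glia-like cluster 29 at 195 CPM (161 to 235). Among neurons, thalamic-like cluster 18 at 196 CPM (172 to 222) and cortical excitatory-like cluster 13 at 189.8 CPM (166 to 216) did not differ beyond counting. Thalamic-like cluster 11 at 125 CPM, Cajal-Retzius-like cluster 25 at 124 CPM and cortical excitatory-like cluster 10 at 104 CPM followed. After these 5 clusters the level dropped 4.65-fold (3.52 to 6.23), to 22.4 CPM, below the background class at 41.1 CPM (34.4 to 48.7). No GABA cluster exceeded the background.

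Lhx9 was highest in the thalamic-like clusters, at 130.1 CPM (115 to 147) in cluster 11 and 111 CPM (93.6 to 131) in cluster 18, which did not differ beyond counting. By the markers of each nucleus the thalamic class held 58.9 CPM (54.8 to 63.2). Cortical excitatory-like cluster 10 had 68.3 CPM (60.2 to 77.2) and Cajal-Retzius-like nuclei 57.3 CPM (41.8 to 76.7). The background was 15.5 CPM (11.5 to 20.4). Lhx9 exceeded it in 8 glutamate clusters and in 0 GABA clusters. Among the 8 was cluster 16, with Lhx9 at 41.1 CPM (33.1 to 50.4), Isl1 at 131 CPM and the hypothalamic factor Nkx2-1 at 108 CPM. Hcrt, the hypocretin neuropeptide, was at 18.3 CPM (13.1 to 24.9) there, in 4.6% of nuclei, and at 0.759 CPM (0.0919 to 2.74) in endothelial-like nuclei.

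The thalamic-like clusters differed in the balance of the pair. Cluster 11 had 1.04 Lhx9 UMIs per Lhx2 UMI (0.876 to 1.24) and cluster 18 had 0.567 (0.457 to 0.701), while the background class had 0.376 (0.266 to 0.524). Cortical excitatory-like clusters 10 and 13 gave 0.656 (0.558 to 0.769) and 0.203 (0.145 to 0.277). Cluster 18 also had the Wnt effector Tcf7l2 at 2874 CPM and the thalamic factor Gbx2 at 27.2 CPM. In that cluster 3 of 14 tested partner genes were 4-fold above background (2.56% of all genes) and 9 were at 1/4 of it or less (11% of all genes). The corresponding counts in cluster 11 were 2 (1.53% of all genes) and 1 (9.88%). With genes that had no UMI entered at that limit (Trp73 in cluster 18, Emx1 in cluster 11), the list's median fold was 0.205 in cluster 18 and 0.822 in cluster 11. It was 0.175 and 0.847 without them, with 0.802 and 0.836 over all genes, and Tcf7l2 and Gbx2, the genes called higher in both, belong to the markers of thalamic nuclei. Of the nuclei in cluster 11, 9.97% were among the highest doublet scores, and of those in cluster 18, 0%.

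Lhx6, which is required for cortical interneurons of the medial ganglionic eminence, was above background in 4 neuron clusters, all GABA. It stood at 357 CPM (317 to 399) in forebrain GABAergic-like cluster 14, from 297 UMIs in 135 of 274 nuclei, and at 286 CPM (232 to 349) in basal forebrain cholinergic-like cluster 27. These did not differ beyond counting, with a ratio of 1.25 (0.988 to 1.59). By the markers of each nucleus, Lhx6 was highest in forebrain GABAergic nuclei, at 72.4 CPM (68.0 to 77.1). Migrating interneuron-like cluster 24 had 168 CPM (144 to 195) and GABA cluster 22 had 107 CPM (89.8 to 126). The next cluster was 4.0-fold (2.52 to 6.67) lower than cluster 22 and no higher than the background class at 28.5 CPM (22.9 to 34.9). After thinning to 2000 UMIs, 44.7% of cluster 14 nuclei had an Lhx6 UMI, against 2.59% of background nuclei.

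Of the partner genes listed for Lhx6, 5 of 14 tested were 4-fold above background in cluster 14 (1.28% of all genes) and 4 of 14 in cluster 24 (1.17%). None was at 1/4 of background or less, against 10.8% and 9.21% of all genes. Npy, Sox6, Erbb4 and Ackr3 were among them in both clusters, and Nkx2-1 in cluster 14. Sox6 and Erbb4 were naming markers of cluster 24. The list's median folds were 2.81 and 3.03, with 0.832 and 0.852 over all genes. Sox6, a factor of maturing interneurons, was at 4295 CPM in cluster 14 and 2239 CPM in cluster 24. Sst, the somatostatin neuropeptide, was at 19.2 CPM in cluster 14, near its 16.7 CPM in endothelial-like nuclei. In cluster 24 it was at 55.1 CPM (41.8 to 71.4), in 20.7% of nuclei. Pvalb and Vip had no UMI in cluster 14.

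Lhx8, which is known for directing basal forebrain cholinergic neurons, was highest in the basal forebrain cholinergic-like cluster 27, at 489 CPM (418 to 569.6), from 166 UMIs in 58 of 99 nuclei. In the coarser clusters its highest level was 189.6 CPM. By the markers of each nucleus only 18 nuclei were basal forebrain cholinergic, too few to form a class, and Lhx8 was then highest in forebrain GABAergic nuclei, at 74.4 CPM (69.9 to 79.1). GABA cluster 22 followed at 282 CPM (254 to 313), forebrain GABAergic-like cluster 21 at 129.8 CPM (107 to 156) and cluster 14 at 91.2 CPM (71.9 to 114), each beyond counting from the next. Migrating interneuron-like cluster 24 was at 56.1 CPM (42.6 to 72.5). The background was 38.4 CPM (31.9 to 45.7) in endothelial-like and microglia-like nuclei, and 10.8 CPM (7.37 to 15.4) in fibroblast-like nuclei. It thus differed between classes that should lack the gene. Against fibroblast-like nuclei, Lhx8 was higher in 9 neuron clusters in place of 6.

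Clusters 27 and 22 shared the forebrain factor Gbx1, at 139 CPM and 97.6 CPM, with 13.7 CPM in endothelial-like nuclei. Chat was at 47.2 CPM in cluster 27 and 3.87 CPM in cluster 22. In cluster 27, Chat was in 8 of 58 nuclei with an Lhx8 UMI (13.8%, 6.15 to 25.4) and in 1 of 41 without (2.44%, 0.0617 to 12.9). It was in 5 of 21 nuclei with Isl1 (23.8%, 8.22 to 47.2) and in 4 of 78 without (5.13%, 1.41 to 12.6), and the intervals overlap in both cases. Of 8 tested partner genes of Lhx8 and Isl1, Gbx1 and Bcl11b were 4-fold above background in cluster 27 (1.75% of all genes), and Ebf1 and Foxp1 were at 1/4 of it or less (8.06%). Endothelial-like nuclei, part of the background, held Ebf1 at 1530 CPM and Foxp1 at 987 CPM. The low calls are therefore relative to a class that has these genes. Gbx1 was a marker that named this cluster. The list's median fold was 1.29, with Tac1, which had no UMI there, entered at the upper limit of 3 UMIs. It was 1.12 without Tac1, and 0.936 over all genes.

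The balance of Lhx8 to Lhx6 turned over among GABA clusters. It was 0.256 (0.196 to 0.330) in cluster 14 and 0.333 (0.243 to 0.451) in migrating interneuron-like cluster 24. In cluster 27 it was 1.71 (1.32 to 2.22), in cluster 22 it was 2.64 (2.16 to 3.23) and in cluster 21 it was 5.14 (3.23 to 8.52). Lhx6 in cluster 21, at 25.3 CPM, was no higher than its background level of 28.5 CPM. The background class gave 1.35 (1.02 to 1.78), which the first pair of clusters lay below, clusters 22 and 21 lay above and cluster 27 overlapped.

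Isl1, a factor of motor, striatal and hypothalamic neurons, exceeded the background class of 26.3 CPM (21 to 32.5) in 11 neuron clusters, more than any other member, and 9 of them were GABA clusters. It was highest in GABA cluster 12, at 333 CPM (305 to 362), from 522 UMIs, with a UMI in 74.4% (69.0 to 79.3) of 293 nuclei. By the markers of each nucleus it was highest in forebrain GABAergic nuclei, at 87.3 CPM (82.4 to 92.4). Cluster 21 was 2.00-fold (1.66 to 2.42) lower, at 167 CPM (141 to 196). From there, clusters 21, 17, 16, 23, 0 and 27 formed a chain in which no neighbours differed beyond counting, ending at 82.5 CPM (54.8 to 119). Glutamate cluster 16, at 131 CPM (117 to 147), was in this chain.

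Cluster 12 had the leading genes Gm4128, Sema3e and Frmpd1. Among the 8 tested partner genes, Six3, a forebrain factor, was 4-fold above background (1.52% of all genes), while Slc5a7 and Ebf1 were at 1/4 of it or less (10.9%). Ebf1 was at 91.7 CPM in cluster 12, against 1530 CPM in endothelial-like nuclei, which are part of the background. Its low call is therefore not a sign that cluster 12 lacks Ebf1. The list's median fold, relative to the same background, was 0.405, against 0.799 over all genes. Six3 was at 84.1 CPM and the striatal factor Rarb at 75.8 CPM there. Drd1 and Tac1, genes of striatal projection neurons, were at 0.637 and 1.27 CPM.

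Members were also read in the same nuclei. At full depth over the 21 neuron clusters, 38.6% of 5842 nuclei had UMIs of exactly 1 member and 23.2% of 2 or more. Among 274 background nuclei these shares were 22.3% and 24.5%, also at full depth. Without matching of depth, detection of several members in a nucleus was thus as frequent in classes that should lack them. The background nuclei had a median of 6485 UMIs, and 19.3% of them were among the highest doublet scores, against 4.67% in the neuron clusters. The part of depth and doublets in these shares was not tested. Deep nuclei detect more genes, and nuclei with an Lhx1 UMI had a median of 5933 UMIs against 4214 for those without. E14 shares in the next paragraphs were therefore taken after thinning each nucleus to 2000 UMIs, and full-depth values are named as such.

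Across all neuron clusters the second gene of a paralogue pair was in a larger share of the nuclei that had the first. Of thinned nuclei with an Lhx6 UMI, 23.6% (18.5 to 29.3) had an Lhx8 UMI, against 4.37% (3.81 to 4.98) of those without. For Lhx9 the shares were 17.6% (14 to 21.8) among nuclei with Lhx2 and 4.11% (3.57 to 4.72) among the rest. For Lhx5 they were 8% (6 to 10.4) with Lhx1 and 3.21% (2.72 to 3.77) without. At full depth these shares were 36.1% and 6.31% for Lhx8, 34.8% and 6.20% for Lhx9, and 20.1% and 6.99% for Lhx5. In the other direction, Isl1 was in 3.58% (1.97 to 5.94) of nuclei with Lhx2 and in 10.9% (10.0 to 11.8) of those without.

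Within single clusters the intervals mostly overlapped after thinning. In cluster 27, Lhx8 was in 46.9% (29.1 to 65.3) of nuclei with Lhx6 and 48.9% (33.7 to 64.2) of those without. In cluster 22 the shares were 48.4% (30.2 to 66.9) and 40.4% (32.3 to 49.0), and in cluster 14 they were 13.9% (6.87 to 24.1) and 11.2% (5.52 to 19.7). Lhx5 was in 12.9% (5.74 to 23.9) of Cajal-Retzius-like nuclei with Lhx1 and 13.6% (6.04 to 25.0) of those without. Lhx9 was in 38.5% (26.7 to 51.4) of cluster 11 nuclei with Lhx2 and 23.7% (18 to 30.3) of those without, which overlap. At full depth these shares were 56.5% (47.6 to 65.1) and 30.0% (23.4 to 37.3) and the intervals separate, with median depths of 6503 UMIs in nuclei with Lhx2 and 4313 in those without.

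Of 80 pairs and clusters with at least 10 thinned nuclei of each gene, 4 had separate intervals with the genes together and 1 with the genes apart. Without the nuclei of the highest doublet scores these counts were 3 and 1 of 69. At full depth they were 22 and 3 of 220. Of the 22, 16 were paralogue pairs: Lhx1 with Lhx5 in clusters 0, 10, 11, 15 and 16, Lhx2 with Lhx9 in clusters 0, 10, 11, 13 and 16, and Lhx6 with Lhx8 in clusters 0, 3, 8, 10, 11 and 13. Both genes of a pair exceeded background only in clusters 0 and 15 for Lhx1 with Lhx5, and in clusters 10, 11 and 13 for Lhx2 with Lhx9. In none of the clusters listed for Lhx6 with Lhx8 did both exceed it. The share of paralogue pairs among the 220 was not counted. The part of free RNA was not tested, nor that of depth beyond the thinning. After thinning, Lhx9 in cortical excitatory-like cluster 10 was among the 4 with the genes together. It was at 27.6% (16.7 to 40.9) with Lhx2 and 7.50% (4.70 to 11.2) without, in a cluster where 18.7% of nuclei were among the highest doublet scores. The largest cluster, GABA cluster 0 with 871 nuclei, supplied 3 of the 5. There Lhx5 was in 9.47% (4.42 to 17.2) of nuclei with Lhx1 and 2.61% (1.5 to 4.2) of those without. Isl1 went the other way, in 5.26% (1.73 to 11.9) of nuclei with Lhx1 and 15.5% (12.7 to 18.6) of those without. Cluster 17, which also held both genes, showed no such separation, with Isl1 in 16.5% (9.73 to 25.4) and 23.3% (16.3 to 31.5).

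**Figure D3:**
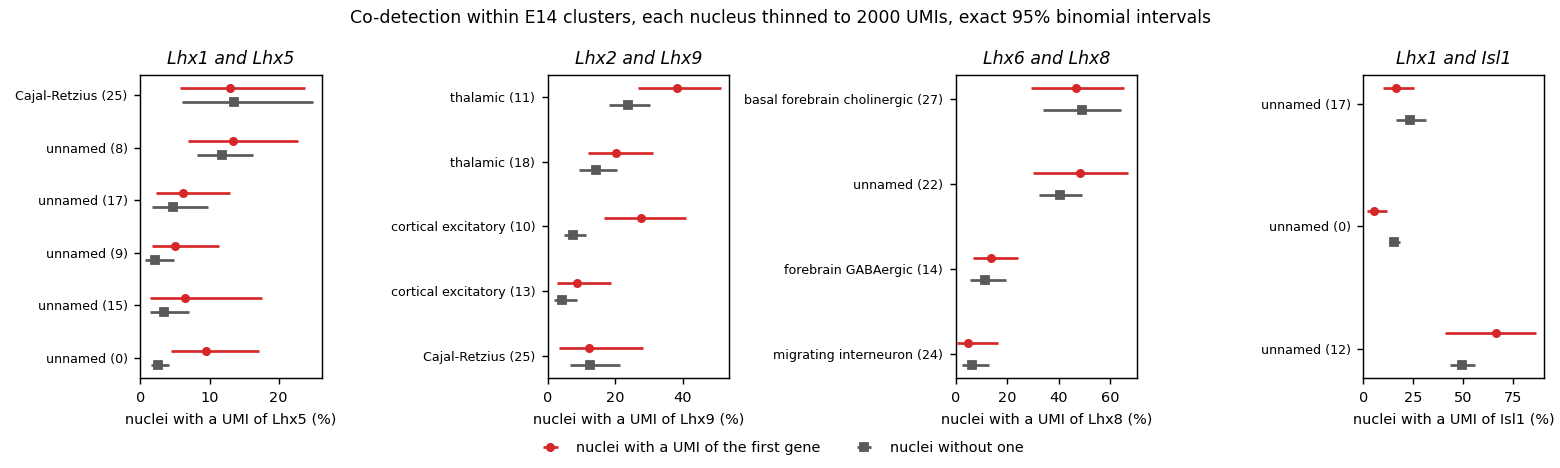
Share of nuclei with a UMI of the second gene of a pair (horizontal axis, percent), after thinning to 2000 UMIs, among nuclei with (red circles) and without (grey squares) a UMI of the first gene. Rows are E14 clusters and bars exact 95% binomial intervals; they separate for Lhx2 and Lhx9 in cluster 10 (27.6% and 7.50%), and for Lhx1 with Lhx5 and Lhx1 with Isl1 in cluster 0.

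Likeness of pattern was measured as Pearson's r of log2(CPM + 1) over the 33 E14 clusters, among genes with at least 100 UMIs. These points share 1 library and its free RNA, so r is a description. For Lhx1, Lhx2 and Lhx5 the most similar gene was a noncoding gene at the same locus. Lhx1os had r = 0.96 with Lhx1, Gm13584 r = 0.98 with Lhx2 and Gm27199 r = 0.89 with Lhx5. For Lhx8 such a gene, AI606473, had r = 0.76, after the transporter Slc10a4 (r = 0.80) and Lhx6 (r = 0.76). A paralogue was among the 3 nearest genes of 4 members: Lhx5 for Lhx1 and the reverse (r = 0.73), Lhx6 for Lhx8, and Lhx2 for Lhx9 (r = 0.70). Lgr5 (r = 0.73) was the remaining one for Lhx1.

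The other nearest genes were Lef1 (r = 0.76) and Bbx (r = 0.75) for Lhx2, and Tmem158 (r = 0.74) for Lhx5. Lhx6 had Dlx6os1 (r = 0.81), Gm17750 (r = 0.81) and Sfta3-ps (r = 0.78), a transcript next to Nkx2-1. Lhx9 had Slc17a6 (r = 0.78), the glutamate transporter of subcortical neurons, and Hs3st1 (r = 0.70). Isl1 had Six3 (r = 0.80), Ecel1 (r = 0.78) and the GABA transporter Slc32a1 (r = 0.71).

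On build GRCm38 (mm10) with GENCODE vM21, Lhx1 lies at chr11:84518284-84525535 on the minus strand, and the lincRNA Lhx1os at chr11:84525660-84535831 on the plus strand. Their starts are 125 bases apart and face away from each other. Lhx8 (chr3:154306294-154330659, minus strand) and AI606473 (chr3:154330821-154334254, plus strand) have the same arrangement, with 162 bases between the starts. Lhx5 (chr5:120431699-120441223, plus strand) overlaps the first bases of the antisense gene Gm27199 (chr5:120419659-120431767, minus strand), with starts 68 bases apart. Gm13584 (chr2:38359580-38363980, minus strand) lies inside Lhx2 (chr2:38339281-38369733, plus strand). Whether counting used the strand was not given in the sources used here. How far reads of Lhx2 and Gm13584, and of Lhx5 and Gm27199 where they overlap, were kept apart was therefore not determined. The other 3 members, Lhx6 (chr2:36081953-36105408), Lhx9 (chr1:138825186-138848577) and Isl1 (chr13:116298281-116309689), all on the minus strand, had no counted gene within 1000 bases.

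The intergenic runs between the divergent starts are printed because each separates the starts of a member and of a noncoding gene among its 3 nearest in pattern. They are read 5′ to 3′ on the minus strand from GRCm38.p6 (RefSeq), at chr11:84525536-84525659 and chr3:154330660-154330820, and end where Lhx1 and Lhx8 begin.
Lhx1os to Lhx1: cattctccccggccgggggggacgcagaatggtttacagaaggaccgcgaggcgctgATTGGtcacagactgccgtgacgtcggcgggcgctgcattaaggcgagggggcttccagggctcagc
AI606473 to Lhx8: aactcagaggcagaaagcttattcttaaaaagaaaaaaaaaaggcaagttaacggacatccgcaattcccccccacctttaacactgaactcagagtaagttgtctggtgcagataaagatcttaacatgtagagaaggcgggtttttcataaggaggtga
The motifs searched on both strands were the CCAAT box, the TATA box motif TATAAA and the homeodomain site TAATTA. The capitals mark the only match, a CCAAT box on the opposite strand. In windows of the same length before the start of all 32851 RefSeq promoters, the CCAAT box occurred in 21.7% at 124 bases and 25.7% at 161, TATAAA in 6.52% and 8.05%, and TAATTA in 2.21% and 3.02%. The Lhx1 run was 66.1% G and C, and the Lhx8 run 40.4%.

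Lhx1os followed Lhx1 through its highest clusters, at 194 CPM in Cajal-Retzius-like nuclei, 122 CPM in cluster 17 and 103 CPM in cluster 9, with 19.5 CPM (15.0 to 24.9) in the background class. AI606473 was at 132 CPM in cluster 22, of which it was the leading gene, at 115 CPM in cluster 27, where Lhx8 was highest, and at 3.6 CPM in cluster 14, with 10.2 CPM (7.03 to 14.3) in the background class. In thinned nuclei of cluster 9, Lhx1os was in 33.3% (24.2 to 43.5) of those with an Lhx1 UMI and 8.94% (5.62 to 13.3) of those without. In cluster 8 the shares were 29.3% (19.7 to 40.4) and 11.1% (7.59 to 15.4), and in cluster 15 they were 36.2% (22.7 to 51.5) and 3.98% (1.73 to 7.69). In Cajal-Retzius-like nuclei, at 30.6% (19.6 to 43.7) and 25.4% (15.0 to 38.4), they overlapped, as they did in cluster 17. For AI606473 and Lhx8 in cluster 22 they were 33.3% (22.7 to 45.4) and 17% (10.2 to 25.8), which overlap.

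**Figure D4:**
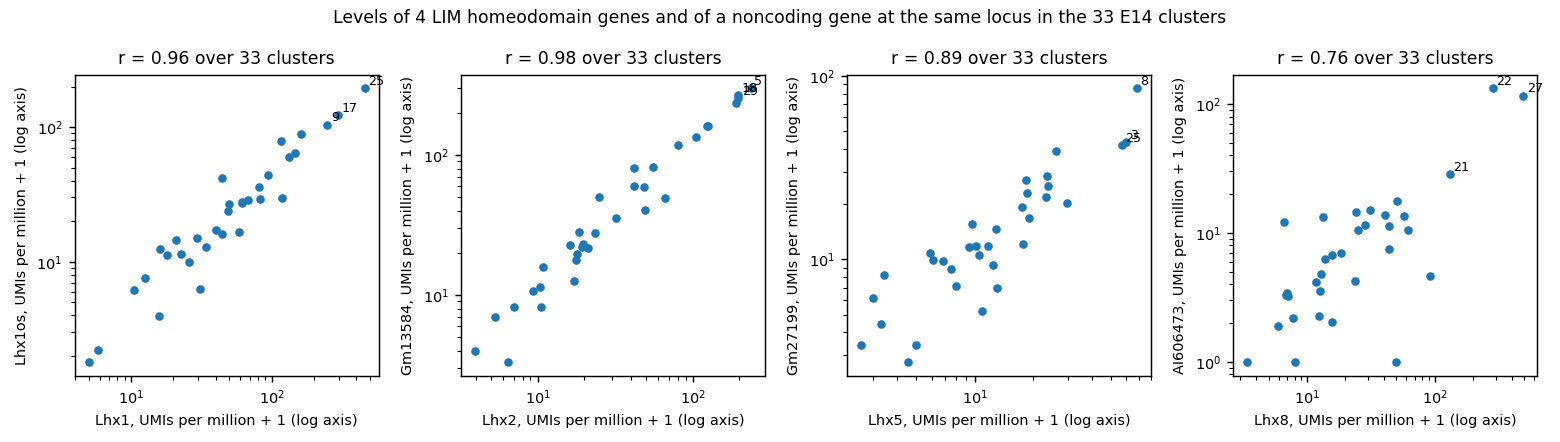
Levels of Lhx1, Lhx2, Lhx5 and Lhx8 (horizontal log axis, CPM + 1) and of a noncoding gene at the same locus (vertical log axis) in the 33 E14 clusters, 1 point each, with the 3 clusters of the highest member level numbered. Pearson's r of the log2 values is 0.96, 0.98, 0.89 and 0.76.

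The adult library asked which members were still found in the hippocampus and in the neighbouring tissue of the section. All 7 had a lower library level than at E14 by at least 2-fold, as had 21.9% of the 16105 genes with 100 or more UMIs in either library. The median log2 ratio of E14 to adult level was 5.98 over the members and 0.18 over all genes tested. Lhx8 and Isl1 had 1 UMI each in the adult, Lhx5 had 4, Lhx1 had 7 and Lhx6 had 19. Lhx2 and Lhx9 persisted, with 237 and 147 UMIs. Their E14 to adult ratios were 3.86 (3.38 to 4.42) and 2.97 (2.51 to 3.54), while the interval of the ratio for Lhx1 began at 82.1. Lhx6 lay between, at 24.1 (15.4 to 40.1).

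**Figure D5:**
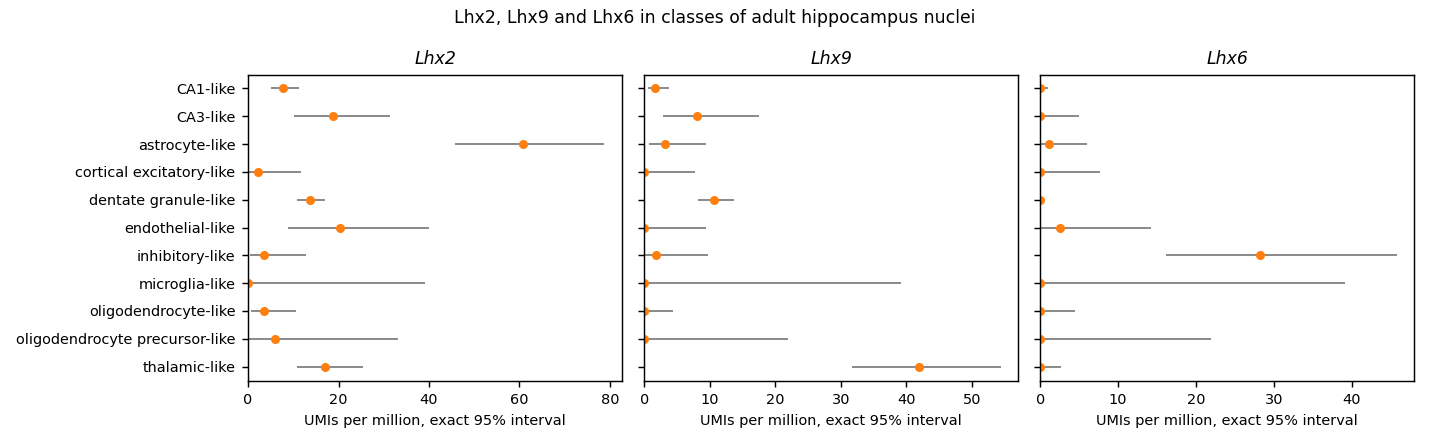
Level of Lhx2, Lhx9 and Lhx6 (CPM, horizontal axis, own scale per panel) in the 11 named classes of adult nuclei, with exact 95% Poisson intervals. Lhx2 is highest in astrocyte-like nuclei (60.7), Lhx9 in thalamic-like nuclei (42) and Lhx6 in inhibitory-like nuclei (28.2).

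Among all adult classes Lhx2 was highest in astrocyte-like nuclei, at 60.7 CPM (45.8 to 78.8), with a UMI in 33.3% (25.1 to 42.4) of 123 nuclei. The unnamed clusters 3, 6 and 8, with 4 to 13 UMIs each, were at 34.6 to 52.5 CPM, with intervals that overlap it. They stayed unnamed for low UMIs. Cluster 6 met 7 of the 8 astrocyte markers, cluster 8 met 7 of the 8 thalamic markers and cluster 3 met 5 of the 8 CA1 markers. Lhx2 was at 18.7 CPM (10.2 to 31.4) in CA3-like, 16.9 CPM (10.7 to 25.4) in thalamic-like, 13.6 CPM (10.8 to 17) in dentate granule-like and 7.69 CPM (5.07 to 11.2) in CA1-like nuclei. Endothelial-like nuclei, which should lack it, gave 20.3 CPM (8.78 to 40.1) from 8 UMIs, an interval that reaches over the neuron classes. Oligodendrocyte-like nuclei gave 3.59 CPM (0.740 to 10.5), from 3 UMIs. Gm13584 was also highest in astrocyte-like nuclei, at 45.5 CPM (32.8 to 61.5). It was at 18.7 CPM (10.2 to 31.4) in CA3-like, 16.3 CPM (13.1 to 19.9) in dentate granule-like and 8.10 CPM (4.04 to 14.5) in thalamic-like nuclei. At 1000 UMIs per nucleus, 9.02% (4.59 to 15.6) of astrocyte-like nuclei had an Lhx2 UMI, against 3.17% (0.387 to 11) of thalamic-like, 1.64% (0.339 to 4.72) of CA1-like and 0.941% (0.257 to 2.39) of dentate granule-like nuclei.

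Among the named adult classes Lhx9 was highest in thalamic-like nuclei, at 42 CPM (31.8 to 54.4), with a UMI in 30 of 63 nuclei. Unnamed cluster 8, of 60 nuclei with a median of 1019 UMIs, had 69.1 CPM (29.8 to 136) from 8 UMIs, an interval that overlaps. This cluster met 7 of the 8 thalamic markers and stayed unnamed for its low UMIs. Dentate granule-like nuclei had 10.7 CPM (8.16 to 13.7) from 61 UMIs, and CA1-like nuclei 1.71 CPM (0.627 to 3.72). Oligodendrocyte-like nuclei had 0 UMIs of 836116, with an exact 95% upper limit of 4.41 CPM. In thalamic-like nuclei the pair was still found together: 11 of the 14 nuclei with Lhx2 had Lhx9 (78.6%, 49.2 to 95.3), against 38.8% (25.2 to 53.8) of the 49 without, and these intervals overlap. In dentate granule-like nuclei Lhx2 was in 21.3% (10.7 to 35.7) of nuclei with Lhx9 and 15.3% (11.8 to 19.3) of those without.

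Set beside the E14 nuclei that bore the same name, adult thalamic-like nuclei had 2.93-fold (2.22 to 3.94) less Lhx9 and 8.96-fold (5.90 to 14.3) less Lhx2. The E14 levels were 123 CPM and 152 CPM. Adult cortical excitatory-like nuclei, of which there were 29, had 1 UMI of Lhx2, where E14 cortical excitatory-like nuclei had 126 CPM (116 to 136). Depth and background also differed between the libraries, and their part was not tested.

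Adult Lhx6 was found in inhibitory-like nuclei, at 28.2 CPM (16.1 to 45.7), with 16 of its 19 UMIs in 8 of 43 nuclei. Clusters 14 and 24 at E14 gave 252 CPM (230.0 to 276), 8.96-fold (5.46 to 15.8) more. In dentate granule-like nuclei it had 0 UMIs of 5717920, which allows up to 0.525 CPM. All 8 nuclei with Lhx6 also had Npy, against 40% (23.9 to 57.9) of the 35 without. Erbb4 was likewise in all 8 and in 71.4% (53.7 to 85.4) of the rest. Pvalb was in 2 and Sst in 1 of the 8. Their median depth was 19629 UMIs against 10316 for the others, and its part in these shares was not tested. Of the 7 adult Lhx1 UMIs, 5 were in inhibitory-like nuclei, at 8.80 CPM (2.86 to 20.5), and Lhx8 and Isl1 had 0 there, which allows up to 5.28 CPM.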

How the data were processed

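Reads were mapped by the authors to the mm10 genome, introns included, and the deposited values are raw UMI counts for each gene in each nucleus. Cell Ranger 6.1.2 (adult) and 7.0.1 (E14) are given per the file headers. CellBender, a background correction, is named in the methods for embryonic tissue. Because the E14 header names Cell Ranger, its values were read as counts before that correction. The counting strand is not given in the sources used here.

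Nuclei needed 500 UMIs and a mitochondrial share below 5%, which 1609 of 1661 adult and 9036 of 9037 E14 barcodes met. Clustering used Seurat 5.3.0 in R 4.3.3 on 2000 variable genes and 30 principal components, at resolution 2 for E14 and 0.8 for the adult, with the 12 LIM homeodomain genes left out. Noncoding genes at their loci were not left out. Scrublet in scanpy 1.11.5 called 0.373% and 0.0443% of nuclei by its automatic cut, so it had not worked. The 21 and 653 nuclei of the highest scores were kept in and left out as an alternative. Clusters were named from 8 markers per class, and 50.3% of E14 nuclei stayed unnamed. The naming rule, the transmitter limits (ratio above 10 or under 2) and the background class were set after values were seen. In folds, a gene at 0 was given a limit of 3 counts. Intervals were checked on simulated data.

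The members and gene lists were chosen with earlier results of these data known. Genes named for likeness are the 3 highest correlations per member. Alternatives covered depth, thinning, detection at 2 UMIs, clustering, doublets and own-marker classes. Some genes of the partner lists were left out and are not reported here.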

Additional observations from a re-analysis of the deposited data

How the results depend on the processing

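No paired analysis was possible because each tissue was 1 library, and no replicate could be left out. Levels in the highest neuron class were within their counting interval for all 7 members when the LIM homeodomain genes were allowed into the clustering. At resolution 0.8 the level moved for Lhx2 (152 CPM), Lhx6 (273 CPM) and Lhx8 (189.6 CPM), and with nuclei of at least 1000 UMIs for Lhx5 (92.4 CPM). Classes taken from each nucleus's own markers gave 329 CPM for Lhx1, 141 for Lhx2, 56 for Lhx5, 72.4 for Lhx6, 74.4 for Lhx8, 58.9 for Lhx9 and 87.3 for Isl1. Without the nuclei of the highest doublet scores the library level of Lhx1 was 74.4 CPM, and the other 16 values moved by less than their intervals. Shares of nuclei depend on depth: thinned to 1000 UMIs they were 30.5% for Lhx1, 17.6% for Lhx2, 7.71% for Lhx5, 29.6% for Lhx6, 27.4% for Lhx8, 13.3% for Lhx9 and 29.1% for Isl1. Thinned to 2000 they were 51.2% for Lhx1, 31.4% for Lhx2, 12.2% for Lhx5, 48.1% for Lhx8, 27.4% for Lhx9 and 51% for Isl1. Nuclei with both genes, as a share of those with either, were 6.50%, 11.8% and 12.9% after thinning to 2000 and 4.84%, 16.4% and 13.5% with detection at 2 UMIs, for Lhx1 with Lhx5, Lhx2 with Lhx9 and Lhx6 with Lhx8. The cause of these moves was not tested, apart from the fewer UMIs read under thinning. Alternatives for the background class were chosen after seeing the data. Without the nuclei of the highest doublet scores in it, Lhx1 exceeded it in 10 neuron clusters in place of 7, and Isl1 in 15 in place of 11. With fibroblast-like nuclei, Lhx8 exceeded it in 9 in place of 6. Co-detection without those nuclei was also added after seeing the data.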

Other observations

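Of the 5 other LIM homeodomain genes, Lhx3, Isl2 and Lhx4 had 2, 7 and 67 UMIs at E14. Lmx1a, known from the roof plate, the cortical hem and midbrain dopamine neurons, was at 689 CPM in cluster 30, in 90.8% of its nuclei. Among neuron clusters it was highest in the unnamed glutamate cluster 15, at 224 CPM (202 to 248), against 3.71 CPM in the background class. Lmx1b, its paralogue, was highest in the same cluster, at 139 CPM (122 to 158), against 2.16 CPM. In the adult library each had 4 UMIs.

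The LIM-only genes and the cofactor genes Ldb1, Ldb2, Ssbp2, Ssbp3, Ssbp4 and Rlim were read in the same way. Of 6 cofactor genes, 0 were 4-fold above background in a neuron cluster, and of 4 LIM-only genes 1 was, Lmo3 in cluster 15 at 299 CPM (273 to 326), where 12.9% of all genes were. The median highest fold was 1.51 for the cofactors, 2.82 for the LIM-only genes and 1.49 for all genes. The background class itself held some of these genes, with Lmo2 at 87.5 CPM and Ldb2 at 306 CPM. Among neuron clusters Lmo2 ran from 2.30 to 64.2 CPM and Ldb2 from 13.2 to 409 CPM, while Ssbp3 ran from 247 to 492 CPM. The counts therefore do not tell how far these genes vary between neuron clusters. The E14 to adult ratio of the whole libraries was 0.687 (0.614 to 0.770) for Lmo1, 1.28 (1.09 to 1.51) for Lmo2, 0.698 (0.668 to 0.730) for Lmo3 and 0.654 (0.619 to 0.692) for Lmo4. For Ldb1 it was 2.34 (2.09 to 2.62), for Ldb2 3.38 (3.15 to 3.63), for Ssbp2 1.97 (1.90 to 2.04), for Ssbp3 4.65 (4.37 to 4.95), for Ssbp4 0.786 (0.732 to 0.845) and for Rlim 1.42 (1.30 to 1.55).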
